A study of Mus musculus with 8 samples.

Results

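Type I interferon-stimulated genes are the antiviral programme that cells switch on when interferon reaches them. The 34 genes described here were taken by symbol from a list of such genes, and all 34 were found among the 24924 genes of the count table. The list was not filtered by measured levels, but it was chosen with earlier results of these data known. RNA was sequenced from 2 sorted populations, microglia and brain T cells, of C57BL/6 mice aged 20 to 22 months. The mice had received PBS or 2 µg of interleukin-5 (IL-5) a day for 2 days. IL-5 is a cytokine best known for its action on eosinophils and B cells, and the comparison asks how the programme stood in each population with and without it. Each population was sequenced with either treatment, which makes 4 groups of 2 libraries. The populations were isolated by surface markers, and the labels do not say whether the 2 libraries of a group came from separate mice. The p-values given here therefore measure only the spread between these samples, which may be technical.

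Interferons of type I bind the receptor IFNAR, whose kinases JAK1 and TYK2 phosphorylate transcription factors of the STAT family. STAT2 and IRF9 are parts of the complex ISGF3, which binds the interferon-stimulated response element (ISRE) in the promoters of target genes. In the brain, microglia are known to show this response with age, infection and injury. By role the list held 17 antiviral effectors, 5 members of the 2-5A synthetase family, 4 sensors of nucleic acid, 3 transcription factors and 5 feedback genes and regulators.

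The ISRE is the element through which ISGF3 is known to act, so the promoter stretches that carry its letters are shown for 7 members whose levels are described below. The letters searched were GAAANNGAAA and their reverse complement TTTCNNTTTC, and overlapping matches were each counted. RefSeq promoters of the build GRCm38.p6, from 250 bases before to 50 bases after a start site, were at hand for 25 of the 34 genes. Mx1, Mx2, Oas2, Ifi204, Usp18, Rtp4, Zbp1, Ifi27l2a and Parp14 had no entry. The letters occurred in 15 of the 25 genes (60.0%), against 3.99% of all 27025 genes with promoters. By promoter they occurred in 17 of the 32 of the 25 genes (53.1%), against 3.44% of all 32851. The letters TTCNNNGAA of the GAS, the gamma-activated site, occurred in 15.6% of the 32 promoters and in 8.30% of all. A match is a description and not a binding site, and no match says only that these letters are not in the window. Each sequence below lies upstream of its start site and reads 5′ to 3′ on the gene's own strand, with the ISRE letters in capitals and 20 bases to either side where the window allowed.
Ifit3, chr19:34583353-34583436, plus strand: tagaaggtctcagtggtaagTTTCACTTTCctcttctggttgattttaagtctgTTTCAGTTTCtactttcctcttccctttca
Ifit3b, chr19:34607749-34607832, plus strand: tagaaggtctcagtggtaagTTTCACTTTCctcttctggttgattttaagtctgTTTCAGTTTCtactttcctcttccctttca
Ifit1, chr19:34640765-34640833, plus strand: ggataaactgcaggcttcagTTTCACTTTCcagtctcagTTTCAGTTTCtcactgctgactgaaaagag
Isg15, chr4:156200855-156200916, minus strand: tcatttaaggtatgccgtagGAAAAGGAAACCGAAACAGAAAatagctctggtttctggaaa
Oas1a, chr5:120907526-120907565, minus strand: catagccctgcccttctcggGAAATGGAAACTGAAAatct
Bst2, chr8:71537567-71537622, minus strand: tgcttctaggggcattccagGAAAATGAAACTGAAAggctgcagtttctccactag
Trim30a, chr7:104465200-104465249, minus strand: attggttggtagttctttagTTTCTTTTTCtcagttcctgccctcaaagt

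The windows of Ifit3 and Ifit3b, neighbours on chromosome 19, are identical over all 84 bases. Ifit1 holds a pair of the same kind, and Isg15 holds 3 overlapping matches that end 57 bases before its start site. In Oas1a and Bst2 the 2 matches also overlap, while Trim30a has 1.

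Library depth ran from 23536908 to 30423828 counts over genes. A level is given in counts per 1000000 gene counts (CPM). Where a gene had 0 counts, its true level could still reach 3 counts, which is 0.0986 to 0.127 CPM, for counting error only. Microglia IL-5 replicate 1 stood apart, with 25.5% of its reads outside genes against 15.2% to 17.0% in the other microglia libraries, and 13172 genes detected against at least 14318. The 12 microglia markers, among them C1qa, summed to 43023 to 60617 CPM in the microglia libraries and 94.7 to 184 CPM in the T cell libraries. The 10 T cell markers, among them Cd3g and Cd8b1, summed to 4051 to 7148 CPM in T cells and 16.6 to 175 CPM in microglia. The 7 choroid plexus markers, led by Ttr, reached 35755 to 114503 CPM across all 8 libraries, and 6 neutrophil markers, led by S100a8 and S100a9, 12646 to 16335 CPM in microglia against at most 25.02 CPM in T cells. In bulk samples of this kind, fewer cells of a type and less RNA per cell cannot be told apart.

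**Figure D1:**
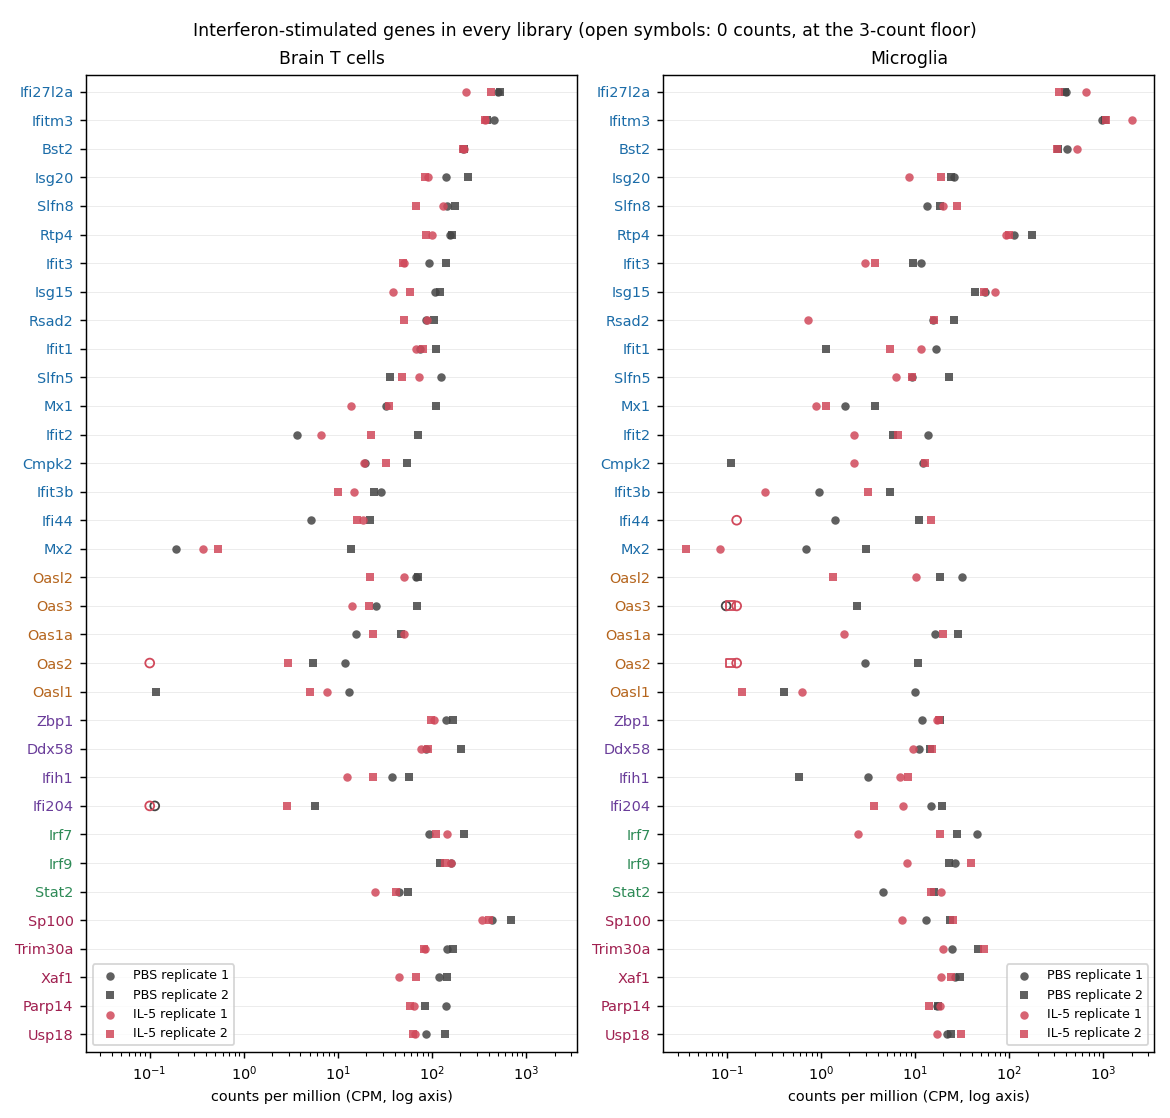
Level of each of the 34 interferon-stimulated genes in every library, in CPM on a log axis, with T cells at left and microglia at right, grey for PBS and red for IL-5. Gene names are coloured by role, open symbols are counts of 0 drawn at 3 counts, and the 3 genes at the top (Ifi27l2a, Ifitm3 and Bst2) stand well above the rest in microglia.

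Levels between genes are compared per length, in CPM per kilobase of exon. In all 4 groups the highest 3 were Ifitm3, a membrane protein that blocks viral entry, Ifi27l2a, a small interferon-induced mitochondrial protein, and Bst2, the tether that holds budding virions at the cell surface. After PBS, Ifi27l2a led in T cells with 1087 and 1148 CPM per kilobase, followed by Ifitm3 with 668 and 563 and Bst2 with 234 and 243. These 3 ranges do not overlap. In microglia after PBS the order was Ifitm3 with 1430 and 1521 CPM per kilobase, Ifi27l2a with 867 and 849, and Bst2 with 456 and 363, again without overlap. Isg15 and Rtp4 came next in microglia with 57.03 to 73.6 and 52.1 to 82.6 CPM per kilobase, ranges that overlap. In T cells Isg15 took the fourth place, with 143 and 160 CPM per kilobase, above Isg20 with 76.4 and 129.

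By CPM, which are not corrected for gene length, the 2 populations spread this programme differently over its genes. The 3 most abundant members held 72.3% to 89.3% of the summed CPM of the 34 genes in the microglia libraries. They held 33.7% to 41.0% in the T cell libraries, where Sp100 replaced Bst2 among the 3 on this scale. Sp100 has 7556 bases of exon and Bst2 903. Per kilobase Bst2 kept the third place in T cells, with means of 239 after PBS and 241 after IL-5. Those of Sp100 were 74.1 and 48.8. The shares were not computed per kilobase, so the part of gene length in this contrast was not tested. Without Ifitm3, Ifi27l2a and Bst2, the other 31 members summed to 571 and 672 CPM in PBS microglia, 383 and 561 CPM in IL-5 microglia, 2633 and 3621 CPM in PBS T cells, and 1960 and 1894 CPM in IL-5 T cells. Of the 34 members, 21 to 27 reached 5 CPM in a microglia library and 31 to 33 in a T cell library.

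Replicates of a group differed among these genes by a median of 0.54 to 0.82 on the log2(CPM + 0.5) scale. In T cells after PBS, replicate 2 lay above replicate 1 for 27 of the 34 members, and 13 members differed by more than 2-fold between those 2 libraries. Low members carried the widest gaps: Oasl1 measured 13.2 and 0.117 CPM in the T cell PBS libraries, and Cmpk2 12.2 and 0.110 CPM in the microglia PBS libraries.

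In brain T cells, most of the programme was measured lower after IL-5 than after PBS, but no member passed the test. The fitted log2 fold change was below 0 for 30 of the 34 members (88.2%), against 50.8% of all 13897 genes tested. The median over the members was −0.72, with quartiles of −1.14 and −0.38, beside −0.01 over all genes. On CPM scaled by the TMM factors of the fit, which adjust for library composition, both IL-5 libraries lay below both PBS libraries for 18 members, or 52.9%, against 17.3% of all genes. On that scale Bst2 alone had both IL-5 libraries above both PBS libraries, against 18.1% of all genes. On the CPM printed here, which carry no such factor, the counts were 19 members lower, Ifitm3 being the one added, and 0 higher, against 19.0% and 16.6% of all genes. The edgeR quasi-likelihood test called 0 members and 0.0% of all genes, with an adjusted p of at least 0.9999 for every gene. At an unadjusted p under 0.05, 6 members were lower and 0 higher, against 1.76% and 2.55% of all genes. DESeq2 called the same 6 members lower, where it called 1.83% of all genes lower, and 0 members higher, where it called 2.90% of all genes.

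**Figure D2:**
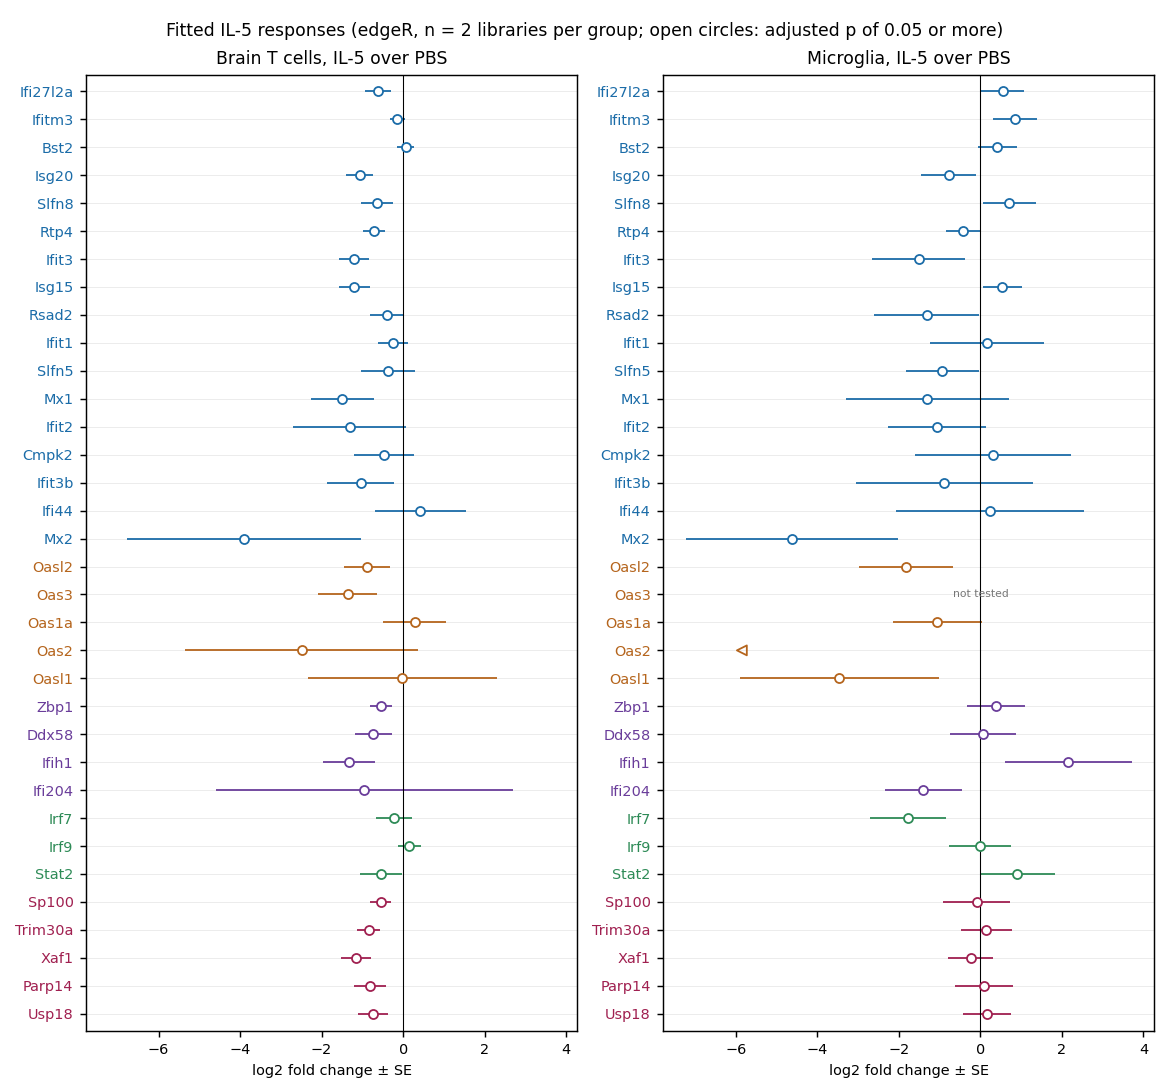
Fitted log2 fold change of each gene, IL-5 over PBS, with its standard error, in brain T cells (left) and microglia (right), 2 libraries per group, with gene names coloured by role. All circles are open, since no member had an adjusted p under 0.05 in edgeR, the triangle marks Oas2 at its lower bound because both IL-5 libraries held 0 counts, and 30 of 34 circles lie left of 0 in T cells against 18 of 33 tested in microglia.

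Among the antiviral effectors, Ifit3, a member of the family that binds foreign 5′ RNA ends, measured 93.9 and 142 CPM with PBS and 50.1 and 48.7 CPM with IL-5. Both IL-5 libraries were below both PBS libraries, and the log2 fold change was −1.21 (SE 0.37, edgeR adjusted p = 0.9999, DESeq2 adjusted p = 0.0076). The gene lies at chr19:34583531-34588731 on GRCm38, and 41.1% of its 75-base windows also occur in Ifit3b, so reads may be split or lost between the 2. Ifit3b itself measured 28.7 and 24.3 CPM with PBS and 14.9 and 9.94 CPM with IL-5, also without overlap.

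Isg20, an exonuclease that degrades viral RNA (chr7:78913424-78920396), measured 142 and 240.0 CPM with PBS and 91.5 and 84.4 CPM with IL-5. The groups did not overlap, and the log2 fold change was −1.07 (SE 0.33, edgeR adjusted p = 0.9999, DESeq2 adjusted p = 0.0216). Isg15, the ubiquitin-like protein that is attached to other proteins during the response (chr4:156199424-156200818), had a log2 fold change of −1.20 (SE 0.38, edgeR adjusted p = 0.9999, DESeq2 adjusted p = 0.0074). Its 108 and 121 CPM after PBS stood above 38.3 and 57.9 CPM after IL-5. Rtp4, a receptor transport protein with antiviral activity (chr16:23520291-23614222), measured 155 and 164 CPM with PBS and 101 and 86.6 CPM with IL-5. The change of Rtp4 was −0.72 (SE 0.28, edgeR adjusted p = 0.9999, DESeq2 adjusted p = 0.0336), and 10.5% of its windows are shared with the overlapping gene model Gm45338.

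Of the 17 effectors, 15 had a fitted change below 0, beside 50.8% of all genes, with a median of −0.64. On the low side 7 did not overlap between groups on the TMM scale, against 17.3% of all genes. On the CPM printed there were 8 with Ifitm3, against 19.0%. Ifitm3 and Bst2, among the most abundant effectors, lay near 0. Ifitm3 measured 453 and 382 CPM with PBS and 367 and 365 CPM with IL-5 (log2 fold change −0.14, SE 0.19). Bst2 measured between 211 and 220 CPM in all 4 T cell libraries (log2 fold change 0.06, SE 0.21). Ifi27l2a measured 503 and 531 CPM with PBS and 228 and 424 CPM with IL-5 (−0.62, SE 0.31). Ifit1, another RNA-binding member of the Ifit family, overlapped between the groups, with 75.3 and 110 CPM against 68.3 and 81.0 CPM. Mx2, annotated as a polymorphic pseudogene in GENCODE M21, measured 0.189 and 13.9 CPM with PBS and 0.368 and 0.527 CPM with IL-5 (−3.91, SE 2.86), so that only PBS replicate 2 was high.

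The 5 feedback genes and regulators all lay below 0, beside 50.8% of all genes. None overlapped between groups on either scale. Of all genes, 17.3% were lower without overlap on the TMM scale and 19.0% on the CPM printed. Xaf1, an inhibitor of the antiapoptotic protein XIAP (chr11:72301629-72313733), measured 117 and 143 CPM with PBS and 44.7 and 68.0 CPM with IL-5. Its log2 fold change was −1.16 (SE 0.37, edgeR adjusted p = 0.9999, DESeq2 adjusted p = 0.0096). Trim30a, a regulator of innate signalling (chr7:104409025-104465193), gave closely grouped values, with 145 and 165 CPM with PBS and 83.2 and 82.9 CPM with IL-5. Its change was −0.85 (SE 0.28, edgeR adjusted p = 0.9999, DESeq2 adjusted p = 0.0033), and 4.98% of its windows are shared with Trim30d. Usp18, which removes ISG15 from proteins and shuts down receptor signalling, measured 86.2 and 136 CPM with PBS and 66.3 and 62.4 CPM with IL-5. Sp100, a nuclear body protein, measured 432 and 687 CPM against 339 and 398 CPM, and Parp14, an ADP-ribosyltransferase, 140 and 83.5 CPM against 64.6 and 59.1 CPM.

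All 4 sensors lay below 0, beside 50.8% of all genes. On the TMM scale 2 of them were lower without overlap, against 17.3% of all genes. Ifih1, which encodes the RNA sensor MDA5, measured 37.9 and 56.5 CPM with PBS and 12.6 and 23.5 CPM with IL-5 (log2 fold change −1.34, SE 0.64). Zbp1, a sensor of Z-form nucleic acid, measured 139 and 166 CPM with PBS and 106 and 96.6 CPM with IL-5 (−0.54, SE 0.28). Ddx58, which encodes the RNA sensor RIG-I, overlapped, because PBS replicate 1 at 85.4 CPM lay below IL-5 replicate 2 at 91.5 CPM.

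The 3 transcription factors gave no common direction. Irf7, which amplifies interferon production, measured 93.1 and 217 CPM with PBS and 144 and 112 CPM with IL-5, so that both IL-5 libraries lay between the PBS libraries. Irf9 measured 158 and 121 CPM against 161 and 139 CPM (log2 fold change 0.15, SE 0.28), and Stat2 44.9 and 55.0 CPM against 24.98 and 41.4 CPM (−0.54, SE 0.53). In the 2-5A synthetase family, whose enzymes make the messenger that activates RNase L, 4 of 5 members lay below 0 (50.8% of all genes). Oas3 was the clearest, with 25.7 and 69.2 CPM with PBS and 14.2 and 21.4 CPM with IL-5 (−1.37, SE 0.71). Oas1a measured 15.5 and 47.1 CPM against 49.9 and 23.5 CPM, and 47.6% of its windows are shared with Oas1g.

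The members were also read by whether their promoters held the ISRE letters, as a description without a test. Of all genes, 50.8% lay below 0 in T cells and 51.0% in microglia. In T cells, of the 15 members with the letters, 13 lay below 0 with a median of −0.64, and of the 10 without them, 8 lay below 0 with a median of −0.51. All 9 members with no promoter entry lay below 0, with a median of −0.81. In microglia, 5 of the 14 tested members with the letters lay below 0 with a median of 0.16, and 8 of the 10 without them with a median of −0.51. Of the 9 with no entry, 5 lay below 0 there, with a median of −0.43.

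**Figure D3:**
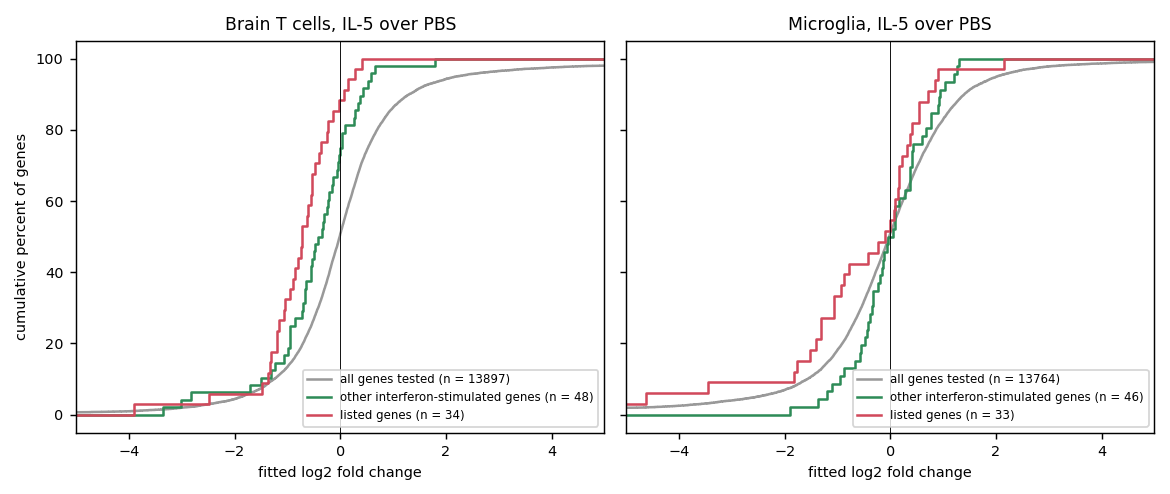
Cumulative share of genes by fitted log2 fold change, IL-5 over PBS, in T cells (left) and microglia (right), for all genes tested (grey), the other interferon-stimulated genes (green) and the 34 listed genes (red), with the axis running from −5 to 5. In T cells the red curve reaches 88.2% at 0 where the grey curve reaches 50.8%, and in microglia the curves cross near 0.

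The T cell values leaned on PBS replicate 2. It was the highest of the 4 T cell libraries for 25 of the 34 members, and without it 24 lay below 0 with a median of −0.41, beside 0.16 over all genes. Leaving out each other T cell library in turn gave medians of −0.76 to −0.87, and edgeR called 0 members in each case. Other genes differed between the same libraries. The summed T cell markers were 6317 and 7148 CPM with PBS and 4051 and 4984 CPM with IL-5, with 9 of 10 below 0 and a median of −0.46. On the TMM scale, 8 of these 10 markers had both IL-5 libraries below both PBS libraries, against 17.3% of all genes. At an unadjusted edgeR p under 0.05, 4 were lower, and DESeq2 called 4 lower, against 1.76% and 1.83% of all genes. The choroid plexus markers were 82778 and 58190 CPM with PBS and 111441 and 114503 CPM with IL-5, with 7 of 7 above 0 and a median of 0.88. On the TMM scale 6 of the 7 were higher without overlap, against 18.1% of all genes. At an unadjusted edgeR p under 0.05, 5 were higher, and DESeq2 called 3 higher, against 2.55% and 2.90% of all genes. With the libraries scaled to the T cell markers, 25 members lay below 0 and their median was −0.30, beside 0.38 over all genes. The part of these marker differences in the values of the interferon-stimulated genes was not tested.

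**Figure D4:**
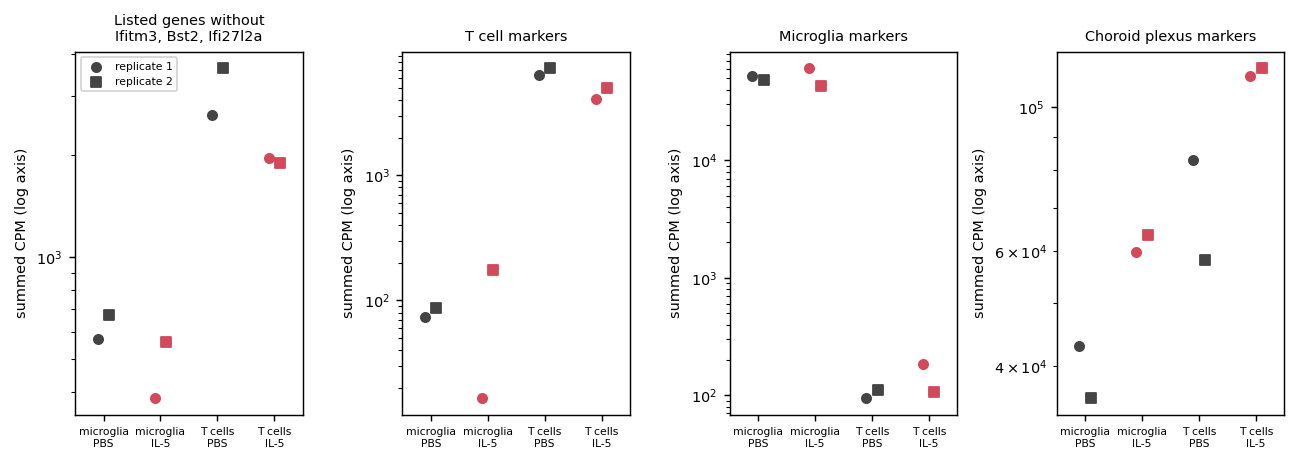
Summed CPM, on log axes, of the 31 listed genes other than Ifitm3, Bst2 and Ifi27l2a and of the T cell, microglia and choroid plexus markers, for each library by group (grey PBS, red IL-5, circles replicate 1, squares replicate 2). The 2 T cell IL-5 libraries sit at 1960 and 1894 CPM in the first panel, below the PBS libraries at 2633 and 3621 CPM, while their choroid plexus markers lie at 111441 and 114503 CPM.

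In microglia, the programme gave no common direction after IL-5. Of the 33 members that could be tested, 18 lay below 0 (54.5%), beside 51.0% of all 13764 genes, and their median was −0.09, beside −0.02 over all genes. On the TMM scale, both IL-5 libraries lay below both PBS libraries for 10 members (30.3%, against 21.1% of all genes). They lay above both for 3 members, Ifitm3, Ifih1 and Slfn8 (9.09%, against 17.4% of all genes). On the CPM printed, Rtp4 joined the lower members, which made 11 (23.1% of all genes), and the 3 higher members were the same (15.0% of all genes). edgeR called 0 members and 0.0% of all genes. At an unadjusted p under 0.05 it had 1 member lower, Oas2, against 2.70% of all genes, and 0 higher, against 1.79%. DESeq2 called Oas2 lower and no other member, where it called 0.356% of all genes lower and 0.131% higher.

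The lowest fitted change was that of Oas2, of the 2-5A synthetase family, followed by the effector Mx2 (log2 fold change −4.62, SE 2.60). Mx2 measured 0.690 and 3.02 CPM after PBS and held 2 and 1 counts in the IL-5 libraries. Oas2 measured 2.93 and 10.8 CPM after PBS and 0 counts in both IL-5 libraries (edgeR adjusted p = 0.964, DESeq2 adjusted p = 0.0254). The mean after PBS was 57.7-fold the mean with each IL-5 library set at 3 counts, a bound for counting error only. Oas3 was detected in 1 microglia library only, PBS replicate 2 at 2.39 CPM, and was not tested. Oasl2, an OAS-like protein, measured 31.7 and 18.3 CPM with PBS and 10.1 and 1.36 CPM with IL-5 (log2 fold change −1.82, SE 1.15, edgeR adjusted p = 0.974). All 4 tested members of this family lay below 0, beside 51.0% of all genes. At these levels the 2 libraries of a group often differed severalfold.

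Irf7 also had both IL-5 libraries on the low side in microglia, with 45.0 and 27.7 CPM with PBS and 2.46 and 18.5 CPM with IL-5. Its log2 fold change was −1.78 (SE 0.93, edgeR adjusted p = 0.964). Ifi204, an interferon-inducible DNA sensor of which 13.2% of windows are shared with related genes, measured 14.8 and 19.4 CPM with PBS and 7.39 and 3.67 CPM with IL-5 (−1.40, SE 0.94). Ifit3 measured 11.7 and 9.57 CPM against 2.97 and 3.75 CPM (−1.52, SE 1.14), and Isg20 26.2 and 24.2 CPM against 8.71 and 18.8 CPM (−0.78, SE 0.68). In none of these were the groups apart by more than 2 standard errors.

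Ifitm3, the most abundant member, measured 970 and 1031 CPM in PBS microglia and 2018 and 1069 CPM in IL-5 microglia. The 2 IL-5 libraries were thus farther apart than IL-5 replicate 2 was from PBS, and the change was 0.85 (SE 0.53, edgeR adjusted p = 0.974). Ifi27l2a and Bst2 followed the same library, with 658 and 525 CPM in IL-5 replicate 1 against 336 to 401 and 325 to 412 CPM in the other 3. This is the library with more reads outside genes, and the summed neutrophil markers in it were 15413 CPM, against 12646 CPM in IL-5 replicate 2 and 13781 and 16335 CPM after PBS. Isg15 measured 55.6 and 43.1 CPM with PBS and 71.1 and 54.5 CPM with IL-5 (0.54, SE 0.47).

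Without IL-5 replicate 1, 21 of 34 microglia members lay below 0 with a median of −0.25, edgeR called 0 of them, and Ifi27l2a and Bst2 lay at −0.27 and −0.21. Without IL-5 replicate 2, the fit left IL-5 replicate 1 alone in its group, on the assumption that it varies like the PBS libraries. The median was then −0.98, beside −0.31 over all genes, and edgeR called 1255 genes, among them Ifitm3 and Ifi27l2a higher (log2 fold changes 1.35 and 1.07) and Irf7 lower (−3.54).

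The responses of the 2 populations were compared directly by the difference of the log2 fold changes, T cells minus microglia, over 15397 genes in all 8 libraries. edgeR called 0 members and 0.0% of all genes, and DESeq2 called 0 members, where it called 0.844% of all genes higher and 0.331% lower. The difference was below 0 for 21 of 34 members, beside 49.1% of all genes, with a median of −0.33 beside 0.03 over all genes. At an unadjusted p under 0.05, 2 members lay on the low side, Isg15 and Ifih1, against 1.96% of all genes, and 0 on the high side, against 3.22%. Isg15 differed by −1.78 (SE 0.64, edgeR adjusted p = 0.904), with a fitted change below 0 in T cells and above 0 in microglia. Ifih1 differed by −3.54 (SE 1.51, edgeR adjusted p = 0.904): it measured 3.19 and 0.589 CPM in PBS microglia and 6.84 and 8.45 CPM in IL-5 microglia, the reverse of its order in T cells. Slfn8 (−1.38, SE 0.68), Ifi27l2a (−1.21, SE 0.65) and Ifitm3 (−1.02, SE 0.58) also lay on the low side. Oas3 lay on the high side (6.97, SE 3.51, edgeR adjusted p = 0.904), with 0 counts in both microglia IL-5 libraries. Ifitm3 was called (−1.55) only when microglia IL-5 replicate 2 was left out.

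In this contrast 49.1% of all genes lay below 0. All 5 members of the feedback group lay below 0 and all 5 of the 2-5A family above 0, with medians of −0.95 and 3.42. The second value rests on genes at or near 0 counts in microglia, such as Oas2 and Oas3. The responses of T cells and microglia were thus not shown to differ for any member.

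T cells carried more of most of these transcripts than microglia. After PBS, 26 of 34 members had a log2 fold change above 0, T cells over microglia, with a median of 1.55, beside 51.1% of all genes and a median of 0.06. edgeR called 6 members higher in T cells, 17.6% against 2.57% of the 15397 genes tested, and 1 lower, against 4.60%. DESeq2 called 12 higher and 2 lower, against 8.33% and 11.2% of all genes. After IL-5, 28 members lay above 0 with a median of 1.47, beside 53.8% of all genes and a median of 0.19. The 2 contrasts compare different libraries, but both come from the joint fit and share its scaling and estimate of spread. edgeR then called 3 higher (2.49% of all genes) and 2 lower (5.73%), and DESeq2 9 and 3 (7.70% and 11.5%). On the TMM scale, both T cell libraries lay above both microglia libraries for 21 members after PBS (29.1% of all genes) and 20 after IL-5 (28.9%), and below both for 5 (29.9%) and 6 (24.3%). On the CPM printed, they lay above for 24 (42.2%) and 26 (43.8%), and below for 3 (19.7%) and 3 (14.5%). Those 3 were Ifitm3, Bst2 and Ifi204 in both contrasts. In both contrasts 25 members lay above 0, 5 lay below 0, and 4 were called. The genes of the whole table called in both were not counted.

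**Figure D5:**
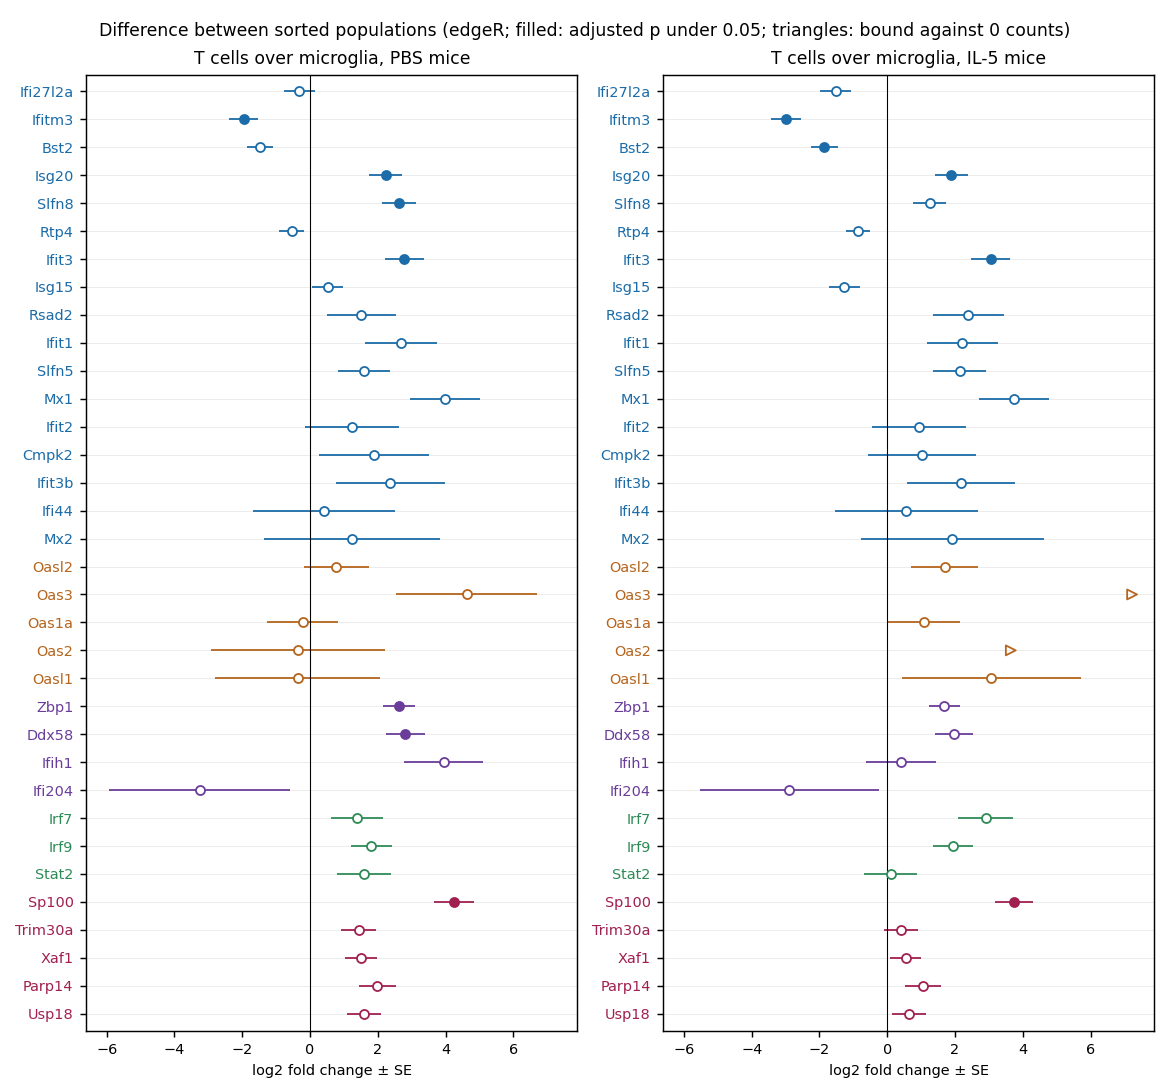
Log2 fold change of each gene, T cells over microglia, with its standard error, in PBS mice (left) and IL-5 mice (right), fitted by edgeR on all 8 libraries with gene names coloured by role. Filled circles passed an adjusted p of 0.05 (7 in PBS mice, 5 in IL-5 mice), triangles are bounds for Oas2 and Oas3 against 0 counts in microglia, and most circles lie right of 0 with Ifitm3 and Bst2 left of it.

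Sp100 (chr1:85649988-85709998) was called in both contrasts. It measured 432 and 687 CPM in T cells and 13.0 and 23.6 CPM in microglia after PBS, and 339 and 398 CPM against 7.22 and 25.6 CPM after IL-5. The log2 fold changes were 4.24 (SE 0.59, edgeR adjusted p = 0.0033) and 3.74 (SE 0.57, edgeR adjusted p = 0.0064). The lowest T cell library, at 339 CPM, thus stood far above the highest microglia library, at 25.6 CPM. Zbp1 (chr2:173206612-173218923) measured 139 and 166 CPM in T cells and 11.9 and 18.4 CPM in microglia after PBS (2.64, SE 0.47, edgeR adjusted p = 0.0117). After IL-5 it measured 106 and 96.6 CPM against 17.1 and 18.0 CPM (1.68, SE 0.46, edgeR adjusted p = 0.0549).

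Ifit3 was higher in T cells in both contrasts, with the T cell and microglia values given above (2.78, SE 0.57, edgeR adjusted p = 0.0213 after PBS, and 3.05, SE 0.58, edgeR adjusted p = 0.0155 after IL-5). Isg20 was likewise higher in both (2.23, SE 0.49, edgeR adjusted p = 0.0256, and 1.90, SE 0.48, edgeR adjusted p = 0.0429). Ddx58 (chr4:40203773-40239828) measured 85.4 and 204 CPM in T cells and 11.01 and 14.5 CPM in microglia after PBS (2.81, SE 0.58, edgeR adjusted p = 0.0205). After IL-5 its 76.8 and 91.5 CPM stood above 9.47 and 15.1 CPM (1.97, SE 0.56), past the threshold in DESeq2 only. Slfn8, a Schlafen family member of which 6.99% of windows are shared with relatives (chr11:83002158-83020810), measured 145 and 175 CPM in T cells and 13.5 and 18.4 CPM in microglia after PBS (2.63, SE 0.51, edgeR adjusted p = 0.0162). After IL-5 it measured 131 and 68.2 CPM against 19.7 and 28.1 CPM (1.25, SE 0.48).

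Mx1, the dynamin-like GTPase that traps viral particles, was close to the threshold in both contrasts. It measured 32.4 and 109 CPM in T cells and 1.81 and 3.76 CPM in microglia after PBS (3.98, SE 1.03), and 13.9 and 34.8 CPM against 0.892 and 1.14 CPM with IL-5 (3.74, SE 1.03). The 3 transcription factors lay above 0 in both contrasts, beside 51.1% and 53.8% of all genes, and DESeq2 called Irf9 in both. All 5 feedback genes lay above 0 too, with medians of 1.59 after PBS and 0.64 after IL-5.

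On the TMM scale of the fit, 5 members had a fold change below 0 in both contrasts: Ifitm3, Bst2, Ifi27l2a, Rtp4 and Ifi204. With library size alone, Ifi27l2a and Rtp4 lay above 0 after PBS (0.38 and 0.15, against −0.32 and −0.54). They stayed below 0 after IL-5 (−0.61 and −0.022, against −1.52 and −0.86). Neither was called by edgeR on either scale, while DESeq2 called Ifi27l2a lower after IL-5 (DESeq2 adjusted p = 0.0094). In CPM Ifi27l2a was higher in T cells after PBS, with 503 and 531 CPM against 401 and 393 CPM. Ifitm3 (chr7:141009586-141010770) measured 970 and 1031 CPM in PBS microglia, well over the 453 and 382 CPM of PBS T cells (−1.96, SE 0.43, edgeR adjusted p = 0.0256). After IL-5 the fold change was −2.98 (SE 0.44, edgeR adjusted p = 0.0056). Bst2 (chr8:71534255-71537456) measured 412 and 328 CPM against 211 and 220 CPM after PBS (−1.48, SE 0.39, edgeR adjusted p = 0.0537). After IL-5 it measured 525 and 325 CPM against 220 and 215 CPM (−1.86, SE 0.40, edgeR adjusted p = 0.0237). Ifi204 was at 0 counts in replicate 1 of both T cell groups and at most 5.75 CPM in the others, against 3.67 to 19.4 CPM in microglia. The neutrophil markers named above were present in the microglia libraries and nearly absent from the T cell libraries, and their part in these differences was not tested.

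The size of these gaps depends on how the populations are put on 1 scale. TMM factors were 0.638 to 0.819 in microglia and 1.27 to 1.32 in T cells. With library size alone, the median over all genes moved to 0.75 after PBS and 1.01 after IL-5, and that of the members to 2.25 and 2.29. The members called were then 11 higher and 0 lower after PBS, and 10 higher and 1 lower after IL-5, with Ifitm3 after PBS at −1.26 and Bst2 after IL-5 at −0.96, both no longer past the threshold. Calls over all genes were not counted by direction in that setting, so these counts have no share beside them. Leaving out 1 library at a time gave 1 to 9 members called higher and 0 to 2 lower after PBS, and 1 to 6 higher and 1 to 4 lower after IL-5. Sp100 was called in PBS mice without each of the 8 libraries.

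The genes that make, receive and pass on the interferon signal were read from further lists. Of 21 interferon genes, only Ifng, the type II interferon, was high enough to test. It measured 160 and 206 CPM in T cells after PBS and 180 and 153 CPM with IL-5 (log2 fold change −0.09, SE 0.26), and at most 6.61 CPM in microglia. Each library had 19 to 21 of the 21 genes at 0 counts. No gene of the lists that follow was called by edgeR in either IL-5 comparison. In T cells DESeq2 called 1 JAK, STAT or IRF gene, 1 negative regulator and 1 sensor or adaptor lower, against 1.83% of all genes. It called 0 genes of these 3 lists higher, against 2.90%. At an unadjusted edgeR p under 0.05, 2, 1 and 1 genes of these lists were lower, against 1.76% of all genes, and 0 higher, against 2.55%.

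Among the receptors, Ifnar1 measured 81.8 and 125 CPM in T cells after PBS and 14.0 and 68.7 CPM with IL-5 (−1.28, SE 0.76). Its partner Ifnar2 measured 199.96 and 267 CPM against 264 and 184 CPM. In microglia, Ifnar2 measured 315 and 343 CPM with PBS and 133 and 257 CPM with IL-5 (−0.65, SE 0.40). Ifnar2 thus overlapped between the T cell groups and did not overlap between the microglia groups. Of the receptor chains tested, 4 of 5 lay below 0 in T cells and 5 of 6 in microglia, beside 50.8% and 51.0% of all genes. In T cells they ran from −1.28 to 2.49. On the TMM scale 1 was lower and 1 higher there without overlap, against 17.3% and 18.1% of all genes. In microglia 3 were lower and 0 higher without overlap, against 21.1% and 17.4%. Microglia IL-5 replicate 1 held 705 CPM summed over the receptor genes, replicate 2 1453 CPM, and the PBS libraries 1460 and 1583 CPM.

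Of 10 JAK, STAT and IRF genes, 6 lay below 0 in T cells and 8 in microglia, beside 50.8% and 51.0% of all genes. On the TMM scale 2 were lower and 0 higher without overlap in T cells, against 17.3% and 18.1% of all genes. In microglia 5 were lower and 0 higher, against 21.1% and 17.4%. Microglia IL-5 replicate 1 held 479 CPM summed over the 10 genes, replicate 2 881 CPM, and the PBS libraries 1161 and 1219 CPM. Jak1, a kinase of the receptor, measured 629 and 815 CPM in T cells after PBS and 541 and 409 CPM with IL-5 (−0.55, SE 0.22). The T cell groups did not overlap. In microglia Irf8, a factor of microglial identity, measured 387 and 496 CPM with PBS and 151 and 357 CPM with IL-5 (−0.71, SE 0.45). Jak1 was higher in T cells than in microglia after PBS (log2 fold change 3.84, edgeR adjusted p = 0.0090).

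Of the 9 negative regulators, 5 of 9 lay below 0 in T cells, and 4 in microglia, beside 50.8% and 51.0% of all genes. In T cells they ran from −1.26 to 0.93. On the TMM scale 2 were lower and 2 higher there without overlap, against 17.3% and 18.1% of all genes. Ptpn6, which encodes the phosphatase SHP-1, measured 267 and 265 CPM in T cells after PBS and 137 and 150 CPM with IL-5 (−0.84, SE 0.22). Socs1, a direct inhibitor of JAK kinases, measured 108 and 112 CPM against 78.6 and 72.6 CPM (−0.49, SE 0.31). Of the sensors and adaptors upstream of interferon production, 12 of 18 lay below 0 in T cells and 14 of 20 in microglia. The shares over all genes were again 50.8% and 51.0%.

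A further list of other interferon-stimulated genes was read beside the 34 members. In T cells, 36 of 48 (75.0%) lay below 0 with a median of −0.39, against 50.8% of all genes, and 21 (43.8%) had both IL-5 libraries below both PBS libraries on either scale, against 17.3% of all genes on the TMM scale and 19.0% on the CPM printed. By edgeR 7 of them were lower at an unadjusted p under 0.05, against 1.76% of all genes, and 0 passed adjustment. DESeq2 called 6 lower, against 1.83% of all genes. Ly6e measured 2363 and 2230 CPM with PBS and 2040 and 1807 CPM with IL-5 (−0.21, SE 0.14). Shisa5 measured 1872 and 2177 CPM against 1520 and 1607 CPM (−0.32, SE 0.14), and Ms4a4b 2076 and 2289 CPM against 1285 and 1581 CPM (−0.56, SE 0.16). In microglia, 23 of 46 lay below 0, against 51.0% of all genes. These genes were measured in the same libraries as the 34 members, so their counts are not independent of the members' counts.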

How the data were processed

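The authors deposited raw read counts per gene, whole numbers in 1 table of 24953 entries with a column for each of the 8 libraries. Upstream tools, per the submitters' processing notes, were STAR 2.5.3a, Cufflinks 2.0, DESeq2 1.1, FastQC 1.0.0 and bcl2fastq 2.20.0.422, and the builds mm10 and GRCm38. The counting tool and strand setting are not given in the sources used here, so reads of overlapping and antisense genes cannot be told apart. The 2 summary entries (reads outside genes, 15.2% to 25.5% of a column, and ambiguous reads, 1.39% to 1.77%) and 27 genes with 53 cells that were not numbers were left out, none of them a member.

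CPM, counts per 1000000 gene counts, and CPM per 1000 bases of the exon union (GENCODE M21, GRCm38) were computed from these counts. Tests were made with quasi-likelihood in edgeR 4.0.16 under R 4.3.3 (TMM, filterByExpr with a minimum count of 10, robust, two-sided, Benjamini-Hochberg over all genes tested, threshold 0.05) on the whole table. The IL-5 comparison was fitted within each population alone, and the other contrasts on the 8 libraries jointly. A log2 fold change divided by the square root of F gave its SE. Groups of 2 allow no exact permutation test under the threshold, and depth leaves counting error small beside the spread between libraries except in genes near the floor of 3 counts. The edgeR fits of the IL-5 comparisons were run on simulated counts with the same moderate spread set for every gene, to check the procedure only. That spread was not taken from these libraries, so the run does not show how well changes are found here.

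Alternatives were DESeq2 1.42.0, RLE scaling, library size only, scaling to the markers of the sorted population, no filter, 5 CPM in at least 2 libraries, a replicate block, all 8 libraries in 1 fit for the IL-5 comparisons, and leaving out each library. Whether groups overlap was read on TMM-scaled CPM and, as an alternative chosen after seeing the data, on CPM without TMM factors. Titles number the replicates 1 and 2 in each group. Within a group the 2 libraries were not identical and differed beyond counting noise.

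Members past the threshold were named in full, up to 8 by smallest p, or otherwise the 6 with the smallest p at a mean of at least 5 CPM; of other lists, up to 3 of the most abundant genes. Further genes (Ifit3b, Ifi27l2a, Bst2, Ifit1, Mx1, Mx2 and the genes given as examples of a role or of the pathway) were chosen after their values were seen. Members and lists were chosen with earlier results of these data known. Shared windows are the 75-base stretches of GENCODE M21 transcripts that occur in another gene. RefSeq promoters were searched by letters. Figures were drawn with matplotlib 3.10.9 (Python 3.11.15).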

Additional observations from a re-analysis of the deposited data

How the results depend on the processing

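Each fit rests on 2 libraries a group, so the calls are few and move with single libraries, and genes near 0 counts have wide errors. The cause was not tested for any value that moved. In T cells after IL-5, scaling to the T cell markers moved the members' median to −0.30 and put Ifit1 at 0.15, Oasl1 at 0.25, Irf7 at 0.24, Rsad2 at 0.027 and Ifitm3 at 0.24. All genes called numbered 658 with DESeq2, 2 with no filter and 2 with all 8 libraries in 1 fit, against 0 in the main fit, and members called lower were 6 with DESeq2. In microglia DESeq2 called 67 genes and 1 member lower. For the difference of responses, DESeq2 called 181 genes and the fit with no filter 31. For T cells against microglia after PBS, DESeq2 called 2825 genes, with 12 members higher and 2 lower, and the fit with no filter 1722 genes with 2 members lower, as with the filter at 5 CPM. Library size only gave 11 higher, 0 lower, 3 below 0 and a median of 2.25. After IL-5 the contrast gave 2843 genes and 9 members higher with DESeq2, 8 members higher with no filter, 10 higher and 1 lower with a median of 2.29 with library size only, and a median of 1.13 with the filter at 5 CPM. On CPM without TMM factors, an alternative chosen after seeing the data, members whose groups did not overlap numbered 0 higher in T cells after IL-5, against 1, and 3 lower in T cells than in microglia after PBS and 3 after IL-5, against 5 and 6. The count of genes with the ISRE letters was 12 of 25 with the upstream 250 bases only, against 15. The shares of all genes were 3.46% and 3.99%.

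Leaving out each library in turn gave, in T cells, 0 to 1 genes called, 24 to 30 members below 0 and medians of −0.87 to −0.41. Members that changed direction ran from −0.49 to 0.023 (Ifit1), −2.44 to 2.01 (Ifit2), −1.01 to 5.77 (Oasl1), −0.38 to 1.28 (Oas1a), −4.89 to 1.26 (Mx2), −0.71 to 0.49 (Irf7), −0.044 to 0.37 (Irf9), −0.27 to 1.77 (Ifi44), −9.27 to 8.31 (Ifi204), −1.03 to 0.46 (Cmpk2), −1.22 to 0.014 (Ddx58) and −1.01 to 0.83 (Slfn5). In microglia it gave 0 to 1255 genes, 0 to 2 members higher, 0 to 1 lower, 18 to 24 below 0 and medians of −0.98 to −0.12, with Ifi27l2a from −0.27 to 1.07 and Bst2 from −0.21 to 0.84. For the difference of responses it gave 0 to 232 genes, 0 to 1 members lower, 17 to 24 below 0 and medians of −0.74 to −0.057, with Oas3 from −1.37 to 8.05. For T cells against microglia it gave 508 to 2028 genes after PBS, with 1 to 9 members higher, 0 to 2 lower, 6 to 9 below 0 and medians of 1.34 to 1.76, and 385 to 2209 genes after IL-5, with 1 to 6 members higher, 1 to 4 lower, 6 to 9 below 0 and medians of 1.25 to 1.61.

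Deviations of same-numbered libraries from their group means correlated at 0.012 to 0.026 over genes, so the numbers were not taken to pair the samples. With the replicate number as a block, 0 members were called in either IL-5 comparison, with medians of −0.69 in T cells, where Oasl1 lay at 2.27, and −0.29 in microglia, and the difference of responses had a median of −0.33. The block gave 6 members higher and 1 lower in PBS mice and 2 higher and 2 lower in IL-5 mice, where Isg20 (1.94) no longer passed.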
